A study of Mus musculus with 34 samples.

Results

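Pid1 and 8 genes of insulin and insulin-like growth factor (IGF) signalling were followed in 34 poly(A)-selected RNA sequencing libraries of mouse colon tumour organoids, which are 3-dimensional epithelial cultures. The members were taken by gene name from the 54354 genes of the deposited count table: Pid1, the receptors Insr, Igf1r and Igf2r, the adaptors Irs1 and Irs2, the ligand Igf2, the kinase subunit Pik3r1 and the inhibitory adaptor Grb10. Pid1 was chosen by its rise in the Degs1 knockout clones, so its values in comparisons that involve the clones or their control are a description with no test. The other 8 members were listed for their roles. All 34 libraries carried the genotype given as AKP, the controls included. In the CRISPR experiment, 3 libraries came from a Scrambled control, 9 from Degs1 knockout clone1 and 9 from Degs1 knockout clone2. The hairpin experiment comprised 10 libraries of a hairpin control, shControl, and 3 labelled shYAP. Scrambled and each clone were 1 line each, and whether replicates came from separate cultures is not given by the labels. In all values below n therefore counts libraries, and p-values measure only the spread between them, which may be technical.

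Insulin and the IGFs bind the receptor tyrosine kinases encoded by Insr and Igf1r, whose activated forms recruit the substrate adaptors Irs1 and Irs2 through phosphotyrosine-binding (PTB) domains. Phosphorylated substrates bind the regulatory subunit of PI3-kinase encoded by Pik3r1, and the lipid signal then activates AKT, which keeps FOXO transcription factors out of the nucleus. Igf2r, the cation-independent mannose 6-phosphate receptor, carries IGF2 to lysosomes, and Grb10 binds active receptors and restrains them. Pid1 encodes a small PTB-domain adaptor that binds the cytoplasmic tail of LRP1 and is known for dampening insulin signalling in fat and muscle cells. In the intestine, IGF signals support growth of the crypt epithelium, and loss of IGF2 imprinting is known from colorectal tumours.

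Degs1, the desaturase of the last step of ceramide synthesis, stood at 7.74 ± 2.62 CPM in the 3 Scrambled libraries (mean ± SD), against 2.41 ± 1.32 over the 9 of clone1 and 1.71 ± 0.893 over the 9 of clone2. CPM, the unit of all levels below, scales counts to the library total after TMM scaling of all 34 libraries together. Yap1, the Hippo pathway coactivator, stood at 19.1 ± 1.13 CPM (n = 3) in the libraries labelled shYAP and at 16.6 ± 4.14 (n = 10) in shControl. Yap1 mRNA was therefore not lower where the label says it should be, and directions for that group rest on the label alone. Library totals ran from 883253 to 6597099 counts, and clone1 replicate 2 and shControl replicate 3 were the shallowest. The 8 epithelial markers summed to between 964 and 2194 CPM in every library. Of other cell types, 1 to 4 of 8 fibroblast markers had a count in each group, with sums of 0 to 1.18 CPM by library and Col1a2, Col3a1 and Pdgfrb at 0 throughout. Of 7 immune markers 1 to 4 had a count, with sums of 0 to 1.77 CPM and Cd3e at 0 throughout. Sums ran from 0 to 3.12 CPM for 4 endothelial markers, with Cdh5 and Kdr at 0, and from 0.700 to 8.51 CPM for 5 adipocyte markers, with Plin1 and Lep at 0. The 4 muscle markers summed to at most 0.355 CPM.

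Promoters of 8 members were found in the RefSeq table of GRCm38.p6, and 3 of them are shown: Pid1 as the chosen gene, and Irs2 and Igf2r for the smallest adjusted p-values among the other members. Each run is the 250 bases before the annotated start, 5′ to 3′ on the strand of the gene, at chr1:84284646-84284895 (minus strand) for Pid1, chr8:11008930-11009179 (minus strand) for Irs2 and chr17:12769707-12769956 (minus strand) for Igf2r. Capitals mark the E-box word CACGTG, the only searched motif in these 3 windows.
Pid1: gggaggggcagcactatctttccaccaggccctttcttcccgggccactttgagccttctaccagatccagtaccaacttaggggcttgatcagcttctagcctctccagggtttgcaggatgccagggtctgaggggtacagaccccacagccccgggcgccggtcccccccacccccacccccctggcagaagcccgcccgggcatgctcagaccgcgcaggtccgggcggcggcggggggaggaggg
Irs2: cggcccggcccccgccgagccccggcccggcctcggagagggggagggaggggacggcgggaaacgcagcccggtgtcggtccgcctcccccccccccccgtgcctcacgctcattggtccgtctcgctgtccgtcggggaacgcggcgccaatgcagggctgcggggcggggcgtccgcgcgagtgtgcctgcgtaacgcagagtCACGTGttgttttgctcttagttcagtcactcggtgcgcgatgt
Igf2r: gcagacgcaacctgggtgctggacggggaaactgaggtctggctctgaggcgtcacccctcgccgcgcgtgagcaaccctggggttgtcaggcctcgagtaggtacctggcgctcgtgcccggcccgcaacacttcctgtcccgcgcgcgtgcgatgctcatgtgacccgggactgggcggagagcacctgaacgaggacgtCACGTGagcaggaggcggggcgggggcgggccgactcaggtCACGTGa
CACGTG, a palindrome read on both strands, occurred in 6.02% of all 32851 promoter windows of this length. The FOXO core GTAAACA was in 3.17% of windows and the TEAD core GGAATG in 12.6%, counting both strands, and no matches in the members' windows shared bases. Igf2r held the E-box at positions -48 and -7 from the start, and Irs2 held it at -44. The Pid1 window held none of the 3 words and was 68% G and C, against a median of 52.4% over all windows. Irs1 held the TEAD core at -201 and the E-box at -115, while the windows of Igf1r and Grb10 held no match. These matches describe letters alone, and no binding was measured.

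Pid1 (ENSMUSG00000045658, chromosome 1, 84036296 to 84364180, minus strand, mm10) had its highest level in clone2 and its lowest in Scrambled. In Scrambled the 3 libraries held 3.01, 1.70 and 1.02 CPM, from 13, 11 and 5 counts. In clone1 the 9 libraries ran from 9.97 over a median of 22.6 to 33.97 CPM, and in clone2 from 42.4 over 70.5 to 79.9 CPM. The 3 groups did not overlap: every clone1 library lay above Scrambled and every clone2 library above clone1. The group means were 1.91 ± 1.01 (n = 3), 23.8 ± 7.40 (n = 9) and 64.4 ± 13.9 CPM (n = 9). The log2 fold change against Scrambled was 3.70 ± 0.33 (SE) in clone1 and 5.07 ± 0.33 in clone2, and clone2 exceeded clone1 by 1.37 ± 0.15. These are the values on which the gene was chosen, and more cells that express it cannot be told apart from more RNA per cell in bulk libraries.

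The size of the rise depended on which control it was set against. Pid1 stood at 10.04 ± 2.24 CPM (n = 10) in shControl, from 7.64 to 13.8 CPM, so all 3 Scrambled libraries lay below all 10 shControl libraries. Scrambled was lower than shControl by a log2 difference of -2.41. Against shControl the log2 difference was 1.28 for clone1 and 2.68 for clone2, where the experiment differs along with the gene. The clone1 range overlapped shControl through clone1 replicate 2 alone, which held 9.97 CPM from 9 counts in the shallowest library. The next lowest clone1 library held 19.4 CPM, above every shControl library. Within clone2, replicates 7 to 9 held 54.1, 42.4 and 44.1 CPM, below replicates 1 to 6 at 68.8 to 79.9 CPM. With clone replicates 7 to 9 alone the rise over Scrambled was still 3.52 in clone1 and 4.64 in clone2.

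The hairpin experiment is the only comparison that did not choose Pid1. The libraries labelled shYAP held 10.5, 12.6 and 8.84 CPM, all inside the shControl range. The change was 0.08 ± 0.24 with a 95% interval from -0.43 to 0.58 (edgeR quasi-likelihood test, adjusted p = 0.868). The order of Pid1 levels was thus clone2, clone1, then shYAP and shControl, which did not differ beyond their spread, then Scrambled.

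**Figure D1:**
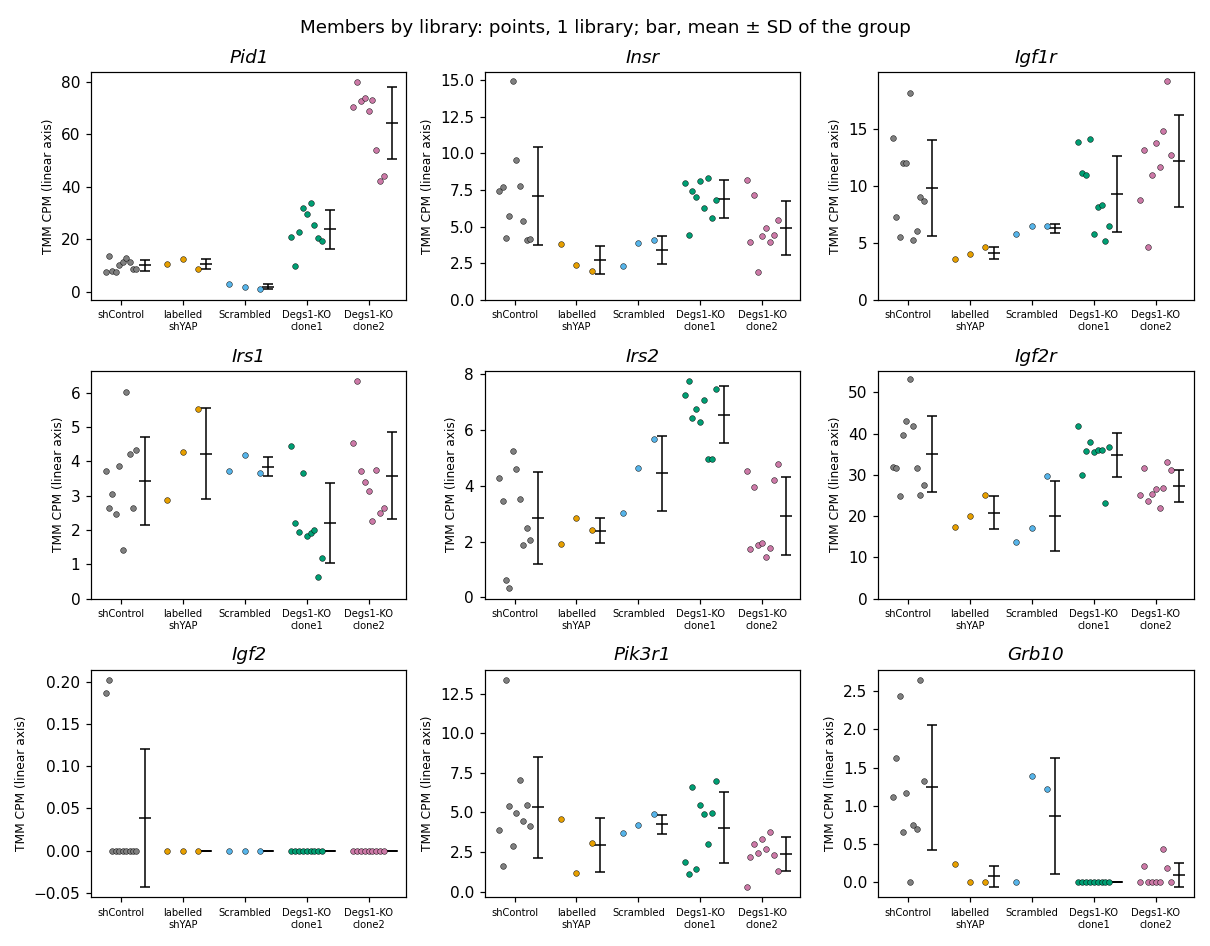
TMM CPM of the 9 members on linear axes, with 1 point per library in 5 groups and the mean ± SD of each group at the right of its points. Pid1 separates Scrambled (1.02 to 3.01 CPM), clone1 (9.97 to 33.97) and clone2 (42.4 to 79.9), while Grb10 is at 0 in all 9 clone1 libraries.

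The gene next to Pid1 also rose in both clones. Dner (ENSMUSG00000036766, chromosome 1, 84369839 to 84696221, minus strand), which encodes a transmembrane protein with EGF-like repeats that can act as a Notch ligand, lies with its 3′ end 5.7 kb beyond the outer end of Pid1. The RefSeq start whose promoter is printed above lies 79.5 kb inside that outer end and 85.2 kb from that end of Dner. Dner held 1.85, 1.08 and 1.42 CPM in Scrambled, 8.65 to 16.8 CPM in clone1 and 11.5 to 26.3 CPM in clone2, with both clones above Scrambled in every library. The log2 fold change was 3.14 ± 0.35 in clone1 (edgeR adjusted p = 2.49e-08) and 3.66 ± 0.34 in clone2 (edgeR adjusted p = 9.99e-11). Dner passed the filter on low counts through the clones, where it was high. Every alternative run for Dner, also the one without that filter, kept both calls, with log2 changes of 1.68 and 2.21 against shControl. Clone2 exceeded clone1 by 0.52 ± 0.17 (edgeR adjusted p = 0.0128). That difference was 0.06 (adjusted p = 0.881) with clone replicates 7 to 9 alone.

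Dner did not pass the test in the libraries labelled shYAP, at 1.17 ± 0.51 (edgeR adjusted p = 0.149, 95% interval 0.09 to 2.25), with 10.1, 11.8 and 5.08 CPM against 0.186 to 7.89 in shControl. Its difference between Scrambled and shControl, -1.46 ± 0.52, did not pass either (edgeR adjusted p = 0.130). Pearson's r of log2 CPM between Pid1 and Dner was 0.82 over the 34 libraries, which fall into separate groups. Within groups it was 0.80 over the 9 clone2 libraries, 0.19 over 9 of clone1 and 0.39 over 10 of shControl, as a description of libraries that share depth. The clone2 value spans a split that both genes showed: like Pid1, Dner was lower in replicates 7 to 9, at 11.5 to 13.1 CPM, than in 1 to 6, at 15.3 to 26.3.

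Of 21 tested genes within 3 Mb of Pid1, Dner included, 1 was higher and 5 were lower in clone1, where 5.96% and 6.71% of all genes were. That 1 was Dner. The median log2 change was -0.32, beside 0.03 for all genes. In clone2, 2 were higher and 3 were lower, not above the shares of all genes, 16.5% and 16.6%. The median there was -0.09, beside -0.03. Irs1 itself lies on this stretch, with a gap of 1744.9 kb to Pid1, and passed in neither clone. The 2 nearest genes on the other side of Pid1, Gm24555 and 4933436I20Rik, had 0 counts in all libraries. The window and the attention to Dner were chosen after the values were seen.

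**Figure D2:**
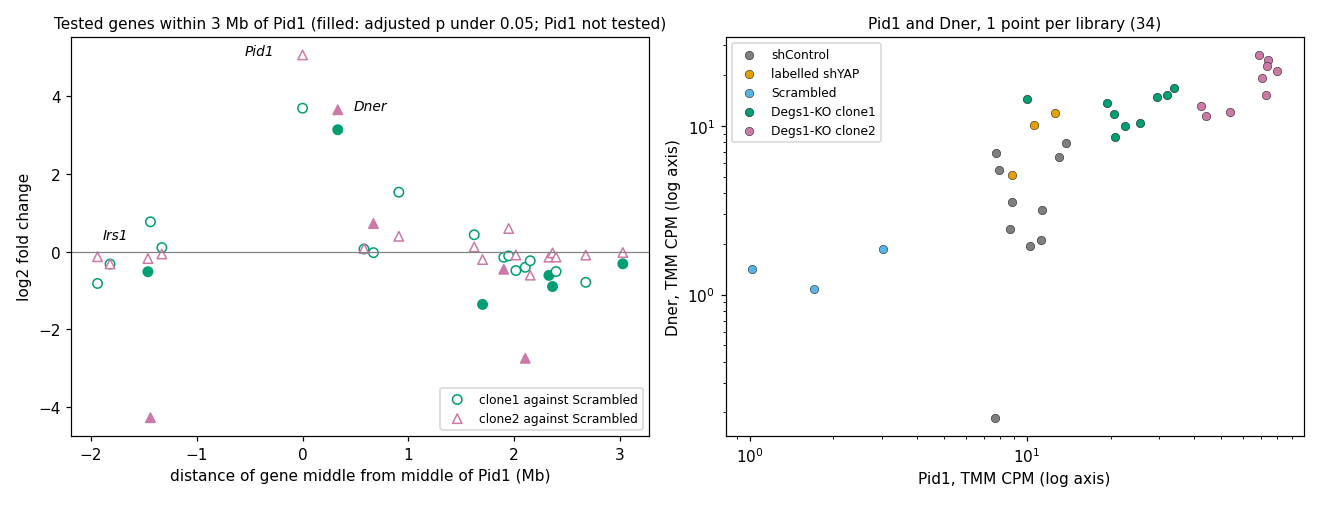
Left, log2 fold change against Scrambled of tested genes within 3 Mb of Pid1, by distance of gene middles in Mb, for clone1 (circles) and clone2 (triangles), filled where the adjusted p was under 0.05. Right, Pid1 and Dner by library on log axes, where all clone libraries lie above the 3 Scrambled libraries on both axes.

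The pattern of Pid1 over the 34 libraries was most like that of Mt4, a metallothionein, with Pearson r = 0.90 of log2 CPM. Oip5os1, Apoc4, Pfn2 and Gchfr followed with r from 0.86 to 0.88, among 9767 genes compared. Mt4 averaged 819 CPM in Scrambled, 1702 in shControl, 2059 in clone1 and 5058 in clone2. Pfn2, a profilin that binds actin, averaged 4.49 CPM in Scrambled and 33.3 in clone2. The most opposite genes were Car9, a carbonic anhydrase known as a hypoxia marker, at r = -0.86, and Mgst2 and Cdca8 at -0.85. Car9 averaged 125 CPM in Scrambled, 13.5 in clone1 and 1.36 in clone2. None of the other members followed Pid1 closely: r ran from -0.38 for Pik3r1 to 0.35 for Igf1r over the 6 with a value. All these points share libraries and depth, so r is a description.

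Among the receptors, Igf2r had the highest level per length, and its level differed between the 2 controls. Igf2r (ENSMUSG00000023830, chromosome 17, 12682406 to 12769664) averaged 2.16 CPM per kb of exon in Scrambled and 3.77 in shControl, against 0.248 and 0.516 for Insr and 0.373 and 0.584 for Igf1r. In Scrambled, Igf2r held 13.7, 17.0 and 29.7 CPM. The 9 clone1 libraries ran from 23.3 over 36.0 to 41.8 CPM, with only replicate 8 inside the Scrambled range. The log2 change was 0.80 ± 0.19 in clone1 (edgeR adjusted p = 0.00323). In clone2, with 21.9 to 33.2 CPM, it was 0.42 ± 0.19 (edgeR adjusted p = 0.075, 95% interval 0.05 to 0.80). Without Scrambled replicate 3, the highest of that group, clone2 passed at 0.80 (adjusted p = 0.00367).

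Insr (ENSMUSG00000005534, chromosome 8, 3122061 to 3279617), the insulin receptor, held 2.31, 3.87 and 4.06 CPM in Scrambled. Clone1 ran from 4.43 over 7.03 to 8.35 CPM, entirely above Scrambled. The log2 change was 1.02 ± 0.33 (edgeR adjusted p = 0.0362). In clone2, 1.89 to 8.21 CPM overlapped Scrambled, with a change of 0.47 ± 0.33 (edgeR adjusted p = 0.290, 95% interval -0.20 to 1.15).

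Igf1r (ENSMUSG00000005533, chromosome 7, 67952827 to 68233668), the receptor for both IGFs, held 5.78, 6.497 and 6.502 CPM in Scrambled. Clone2 ran from 4.63 over 12.7 to 19.2 CPM, with 8 of 9 libraries above Scrambled, replicate 3 being the exception. The log2 change was 0.94 ± 0.31 in clone2 (edgeR adjusted p = 0.0183). Clone1, at 5.15 to 14.1 CPM, changed by 0.54 ± 0.32 (edgeR adjusted p = 0.287, 95% interval -0.09 to 1.18).

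Thus 2 of the 6 members tested in clone1 were higher, against 5.96% of all 11514 genes tested, and none was lower, against 6.71%. At an unadjusted p under 0.05 the lower count was also 0 in edgeR, as were the adjusted counts in DESeq2 and limma. In clone2, 1 of 6 was higher, against 16.5% of genes, and none was lower, against 16.6%, with the same 0 unadjusted and in both other tools. The higher count in clone2 was 2 at an unadjusted p, 1 in DESeq2 and 2 in limma. Pid1 is left out of these counts, and Igf2 and Grb10 did not pass the filter on low counts, which 7 of the 9 members passed.

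The receptor calls against Scrambled rested on that control. Set against shControl, clone1 differed by -0.03 for Insr, -0.11 for Igf1r and -0.01 for Igf2r on the log2 scale. Clone2 was lower than shControl for Igf2r, by -0.36 (edgeR adjusted p = 0.0325), and differed by -0.55 for Insr and 0.31 for Igf1r. Igf2r in Scrambled was lower than in shControl by -0.80 ± 0.21 (edgeR adjusted p = 0.0186). This was the 1 member lower, against 1.19% of 11960 genes, and none was higher, against 1.76%. At an unadjusted p under 0.05 edgeR counted 2 lower and 0 higher, and DESeq2 and limma each called 1 and 0. The controls differ in experiment and in how the cells were made, which cannot be told apart. Summed enteroendocrine markers were 5.26 to 8.33 CPM in Scrambled and 10.9 to 31.4 in shControl, and summed epithelial markers 1501 to 1706 and 1092 to 1490 CPM, with no overlap in either, and their part in the Igf2r difference was not tested. Without Scrambled replicate 1 or 2 that difference was -0.59 and -0.69 and did not pass, and likewise the Igf2r change in clone1 was 0.59 (adjusted p = 0.0771) and 0.69 (0.0523). Insr in clone1 and Igf1r in clone2 did not pass without any 1 of the 3 Scrambled libraries, with adjusted p from 0.0721 to 0.213 and from 0.057 to 0.0785.

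All 3 receptors were lower in the libraries labelled shYAP than in shControl. Igf1r held 3.60, 4.03 and 4.64 CPM there, below all 10 shControl libraries at 5.27 to 18.1 CPM. Its log2 change was -1.27 ± 0.37 (edgeR adjusted p = 0.0292). Insr held 3.84, 2.37 and 1.99 CPM, also below every shControl library at 4.06 to 14.9 CPM, and fell by 1.39 ± 0.42 (edgeR adjusted p = 0.0352). Igf2r held 17.3, 20.1 and 25.2 CPM against 24.9 to 53.2, so that replicate 3 overlapped shControl, and fell by 0.75 ± 0.23 (edgeR adjusted p = 0.0337). Of the 7 members tested, 3 were thus lower, against 5.9% of 11094 genes, and none was higher, against 5.47%. The higher count was also 0 at an unadjusted p under 0.05 and in DESeq2 and limma.

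These 3 calls were lost when any shYAP library was left out, with adjusted p from 0.0573 to 0.183 and log2 changes from -0.63 to -1.70. They were also lost with runs of library numbers as a random block. Against shControl replicates 8 to 10 alone, Igf1r kept its call at -0.96 (adjusted p = 0.0426), while Insr at -0.73 and Igf2r at -0.43 did not. Summed enteroendocrine markers moved along with the receptors, from 10.9 to 31.4 CPM in shControl to 4.03 to 7.95 CPM in the libraries labelled shYAP. Of these 6 markers 5 had a count in shControl and 4 in shYAP, with Gcg at 0 in shControl and Chgb and Neurod1 at 0 in shYAP, and their part in the result was not tested.

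Igf2r has an antisense neighbour, Airn (ENSMUSG00000078247, chromosome 17, 12741311 to 12860136, plus strand), a noncoding RNA known for silencing the paternal Igf2r copy. The library kit keeps strand, but whether the counting used it is not given in the sources used here. Reads of both genes in their shared stretch may therefore not be told apart. Airn averaged 4.47 ± 0.738 CPM in the 3 Scrambled libraries, 4.17 ± 1.28 in the 9 of clone1 and 9.70 ± 2.47 in the 9 of clone2. It rose in clone2 by 1.11 ± 0.31 (edgeR adjusted p = 0.00448), but by 0.48 (0.127) against shControl, and did not pass with runs of library numbers as a random block (0.0589) or with the replicate block (0.0528). It fell by 1.79 ± 0.54 in the libraries labelled shYAP (edgeR adjusted p = 0.0352). That fall did not pass without any 1 shYAP library, at -1.60 to -1.92.

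Among the adaptors, Irs2 differed between the clones and Irs1 did not pass in any comparison. Irs2 (ENSMUSG00000038894, chromosome 8, 10984681 to 11008458) ran from 4.94 over 6.75 to 7.75 CPM in clone1 and from 1.43 over 1.97 to 4.77 CPM in clone2. The clones did not overlap, and the log2 difference of clone2 from clone1 was -1.17 ± 0.25 (edgeR adjusted p = 0.000238). Scrambled lay between them at 3.01, 4.64 and 5.69 CPM, and neither clone passed against it, with 0.53 ± 0.35 for clone1 (edgeR adjusted p = 0.360) and -0.63 ± 0.35 for clone2 (edgeR adjusted p = 0.163). Against shControl, which held 0.328 to 5.23 CPM, clone1 was higher by 1.16 (edgeR adjusted p = 0.0033) and clone2 differed by 0.01. The clone difference was -1.45 with replicates 1 to 6 alone and -0.65 (adjusted p = 0.193) with replicates 7 to 9 alone.

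Irs1 (ENSMUSG00000055980, chromosome 1, 82233101 to 82291416) held 3.70, 4.18 and 3.66 CPM in Scrambled and 0.618 to 4.44 CPM in clone1, where 8 of 9 libraries lay below Scrambled. The log2 change of Irs1 was -0.82 ± 0.42 (edgeR adjusted p = 0.210, 95% interval -1.67 to 0.02). With clone replicates 7 to 9 alone it passed at -1.60 (adjusted p = 0.037). Clone2, at 2.25 to 6.35 CPM, stood close to Scrambled at -0.13 ± 0.41 (edgeR adjusted p = 0.838).

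Pik3r1 (ENSMUSG00000041417, chromosome 13, 101680563 to 101768217) was lower in clone2 than in clone1. It ran from 1.11 over 4.89 to 6.97 CPM in clone1 and from 0.283 over 2.45 to 3.75 CPM in clone2, with overlapping ranges. The difference was -0.85 ± 0.33 (edgeR adjusted p = 0.0294). It was -0.71 (adjusted p = 0.186) in replicates 1 to 6 and -1.03 (0.0625) in replicates 7 to 9 alone. Scrambled held 3.70, 4.18 and 4.88 CPM, against which clone1 changed by 0.00 ± 0.38 and clone2 by -0.85 ± 0.43 (edgeR adjusted p = 0.133). Set against shControl, clone2 was lower by -1.08 (edgeR adjusted p = 0.00866).

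In all, 4 of 6 tested members were lower in clone2 than in clone1, against 25.5% of 11514 genes, and none was higher, against 23.6%. Beside Irs2 and Pik3r1 these were Insr at -0.55 ± 0.22 (edgeR adjusted p = 0.0405) and Igf2r at -0.38 ± 0.13 (edgeR adjusted p = 0.0135). At an unadjusted p under 0.05 edgeR counted 1 higher, and DESeq2 and limma each called 1 higher, namely Irs1. The lower count was 4 at an unadjusted p and in DESeq2, and 3 in limma. Of 12 alternatives, the call was lost in 7 for Insr, 6 for Pik3r1, 3 for Igf2r and 1 for Irs2. With replicates 7 to 9 alone the Igf2r difference was -0.05 and the Insr difference -0.55, and neither passed. The Insr difference also missed the threshold with DESeq2's size factors in edgeR (-0.52, adjusted p = 0.0531) and without the filter on low counts (-0.55, 0.0821). Summed epithelial markers also differed, at 1635 to 2194 CPM in clone1 and 964 to 1236 in clone2, and their part in these differences was not tested.

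**Figure D3:**
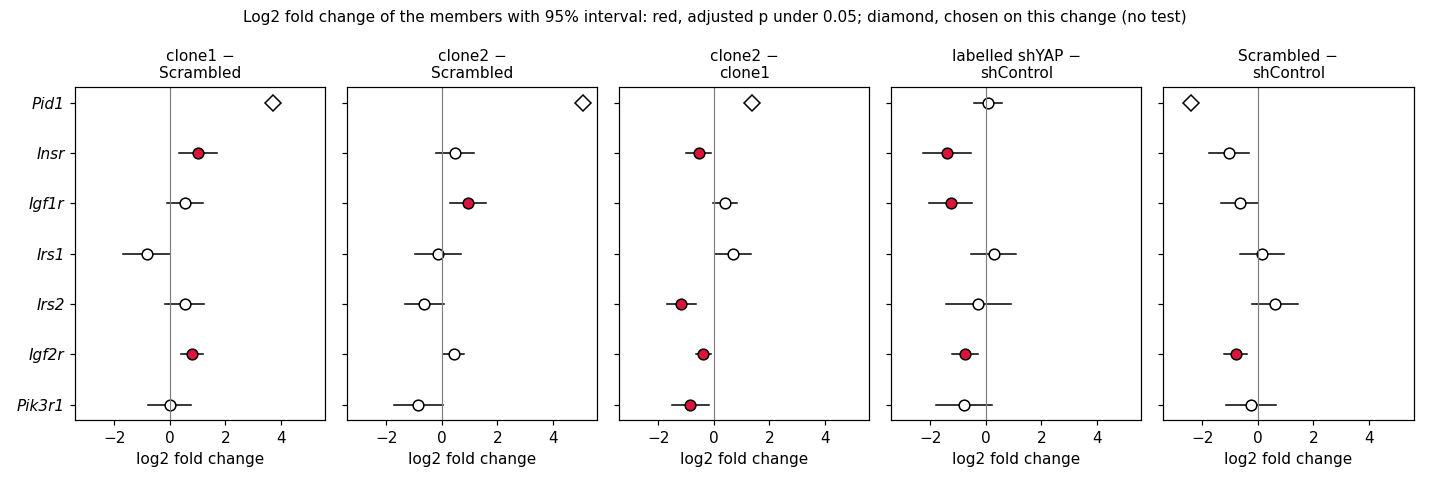
Log2 fold change of the 7 members past the filter on low counts in 5 comparisons, with 95% intervals as lines, red where the adjusted p was under 0.05. Pid1 is an open diamond without interval where it was chosen on the change, and sits at 0.08 in the libraries labelled shYAP, where Insr, Igf1r and Igf2r are lower.

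Grb10 was nearly absent from both clones and from the libraries labelled shYAP. Grb10 (ENSMUSG00000020176, chromosome 11, 11930508 to 12038683) had 15 counts in Scrambled, with 0, 9 and 6 by library. In clone1 it had 0 of 35009779 counts, where 3 counts would give 0.0857 CPM over the group. That ceiling lay 11.7-fold below the pooled level in Scrambled, whose own counting error it leaves out. In clone2 it had 4 of 48748231 counts, from replicates 2, 7 and 8, a level 12.2-fold lower (95% exact interval 3.88 to 50.4). In the hairpin experiment, 1 count in the libraries labelled shYAP stood against 56 in shControl, where 9 of 10 libraries had counts, a ratio of 16.6 (2.86 to 668). These intervals cover counting error only.

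Set by library, CPM of Grb10 gave exact two-sided permutation p-values of 0.0909 for clone1, 0.0909 for clone2 and 0.0280 for shYAP. Adjusted over the 4 comparisons these were 0.121, 0.121 and 0.112, and Scrambled against shControl had an exact p of 0.538. Scrambled replicate 1 held 0 counts, like the clones, so the groups touch. With every clone1 library also at 0, the exact permutation p of 0.0909 was the smallest this test could give for clone1. It lies above the threshold used here, so this test cannot decide whether Grb10 differed in clone1. Without the filter on low counts, edgeR called Grb10 in clone1 (adjusted p = 0.00344) but not in clone2 (0.0643) or shYAP (0.0699). Grb10 was examined this way after its counts were seen.

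The neighbouring imprinted gene Ddc, which encodes aromatic amino acid decarboxylase and lies 32.4 kb from Grb10, did not follow it in clone1. Ddc averaged 8.25 ± 3.41 CPM in Scrambled over 3 libraries, 12.1 ± 2.44 over 9 of clone1 and 0.296 ± 0.270 over 9 of clone2. It fell by 4.76 ± 0.41 in clone2 (edgeR adjusted p = 1.12e-11), where all 9 libraries, at 0 to 0.657 CPM, lay below Scrambled at 5.41 to 12.0 CPM. Clone2 was lower than clone1 by a log2 difference of -5.33 ± 0.34 (edgeR adjusted p = 1.35e-15).

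Igf2 (ENSMUSG00000048583, chromosome 7, 142650766 to 142666816), the fetal growth factor, had 2 counts in the whole table, both in shControl. In Scrambled, both clones and the libraries labelled shYAP it had 0 counts, which allows up to 0.200, 0.0857, 0.0615 and 0.231 CPM over each group. Its level was therefore not measurable at this depth.

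Of 16 ligand and binding protein genes, 3 were tested in the CRISPR experiment, since most had too few counts. Igf1, the main IGF ligand of adult tissues, had 2 counts in Scrambled, 25 in clone1 and 196 in clone2. In clone2 the 9 libraries ran from 0 over 5.43 to 8.34 CPM, where replicates 1 and 2 were at 0 and the other 7 held at least 3.07 CPM. The level in clone2 was 30.2 times that in Scrambled (95% exact interval 8.24 to 251, counting error only) and 5.63 times that in clone1 (3.70 to 8.91). The edgeR adjusted p was 0.0107 against Scrambled and 0.00533 against clone1. Igf1 passed the filter on low counts through clone2 alone, the group where it was high, so its entry to the test depended on that group. Without the filter the edgeR adjusted p was 0.0316 and 0.0162. Without Scrambled replicate 2 or 3 the adjusted p against Scrambled became 0.0521 and 0.0569. With clone replicates 1 to 6 alone the difference between clones did not pass (adjusted p = 0.0847).

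Igf2bp3, an RNA-binding protein that binds IGF2 mRNA, was the other call of that list against Scrambled. It is named after its values were seen, since its mean level lay under the limit for naming. It passed the filter on low counts through Scrambled alone, the group where it was high. It averaged 5.95 ± 2.97 CPM over the 3 Scrambled libraries, 0.616 ± 0.564 in clone1 and 0.239 ± 0.287 in clone2 (n = 9 each). It fell by 3.27 in clone1 (edgeR adjusted p = 0.000446) and by 4.54 in clone2 (2.08e-06), but shControl, at 1.09 ± 0.636 CPM (n = 10), lay far below Scrambled. Against shControl the clone1 difference was -0.75 and did not pass (adjusted p = 0.385), while clone2 passed at -1.996 (0.00859).

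Of 27 receptor-proximal adaptors and inhibitors, 21 were tested, and the largest change against Scrambled in both clones was that of Enpp1. Enpp1, a membrane pyrophosphatase known to bind and inhibit the insulin receptor, held 5.41, 9.14 and 10.6 CPM in Scrambled. Every clone library lay below these, with 0 to 1.83 CPM in clone1 and 0 to 2.63 CPM in clone2. Enpp1 passed the filter on low counts through Scrambled, the group where it was high. It fell by 3.62 ± 0.56 in clone1 (edgeR adjusted p = 1.53e-05) and by 2.91 ± 0.52 in clone2 (3.37e-05). Both calls held in every alternative run, also against shControl at -2.97 and -2.23. In the libraries labelled shYAP, Enpp1 held 3.53 to 5.03 CPM, inside the shControl range of 1.40 to 8.51.

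Counted over that list, Enpp1 included, in clone1 1 was higher and 1 lower, against 5.96% and 6.71% of all genes, with a median of 0.10 beside 0.03. In clone2, 4 were higher and 2 lower, against 16.5% and 16.6%, and the median change was -0.07 beside -0.03. Socs6, a suppressor of cytokine signalling that also binds the insulin receptor, rose in clone2 from 16.5 ± 2.79 to 26.5 ± 2.44 CPM, by 0.66 ± 0.17 (edgeR adjusted p = 0.00278). Between the clones 7 were lower in clone2 and 2 higher, against 25.5% and 23.6% of all genes. The latter included Ptpn2, a phosphatase that acts on the insulin receptor, at 38.5 ± 7.55 CPM in clone1 and 72.3 ± 9.71 in clone2, a difference of 0.89 ± 0.11 (edgeR adjusted p = 1.33e-08). In the libraries labelled shYAP none of 21 passed in edgeR, where 4 were lower and 0 higher at an unadjusted p under 0.05, while DESeq2 called 2 lower and limma 1.

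Of 33 genes of the PI3-kinase, AKT and mTOR cascade, 30 were tested in the CRISPR experiment. In clone1, 2 were higher and 2 lower, near the 5.96% and 6.71% of all genes, and the median change was 0.12 beside 0.03. In clone2, 2 were higher and 6 lower, against 16.5% and 16.6% of all genes, and the median change was -0.10 beside -0.03. The lower count is thus near the share of all genes. Eif4ebp1, the translation repressor that mTOR phosphorylates, fell from 607 ± 62.3 CPM (n = 3) to 369 ± 42.7 in clone1 (n = 9), by 0.72 ± 0.11 (edgeR adjusted p = 2.28e-05). Scrambled exceeded shControl, at 350 ± 52.7 CPM (n = 10), by 0.80 ± 0.12 (edgeR adjusted p = 7.86e-05), and clone1 differed from shControl by 0.08.

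Trib3, a pseudokinase that binds AKT, fell in both clones, by 1.01 ± 0.32 in clone1 (edgeR adjusted p = 0.0325) and 1.13 ± 0.32 in clone2 (0.00615). It did not pass in clone1 without any 1 Scrambled library (adjusted p from 0.0512 to 0.243), nor in clone2 without Scrambled replicate 3 (0.0826). In clone1 it changed by -1.73 with replicates 1 to 6 alone and by -0.28 (0.469) with 7 to 9 alone. Between the clones, 11 of 30 were lower in clone2, against 25.5% of all genes, with a median of -0.19 beside -0.05. None was higher, where 1 was at an unadjusted p under 0.05, DESeq2 called 1 and limma 0. They included Deptor, an inhibitor of mTOR, which stood at 30.5 ± 6.10 CPM in clone1 and 14.4 ± 1.76 in clone2, a difference of -1.12 ± 0.13 (edgeR adjusted p = 2.7e-09). In the libraries labelled shYAP, 2 of 31 were lower and 1 higher, near the 5.9% and 5.47% of all genes. Rictor, a subunit of mTOR complex 2, was among the lower ones and fell by 1.09 ± 0.31 (edgeR adjusted p = 0.0286). It did not pass without any 1 shYAP library, with adjusted p from 0.0858 to 0.148. Against shControl replicates 8 to 10 alone Rictor changed by -0.33 (0.150).

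The next list held FOXO factors and genes they are known to raise. Of 16 tested, 3 were higher and 1 lower in clone1 (median change 0.49), and 4 were higher and 2 lower in clone2 (median change 0.47). All genes had medians of 0.03 and -0.03, with 5.96% higher and 6.71% lower in clone1 and 16.5% and 16.6% in clone2. The 3 higher in clone1 were Txnip, Foxo3 and Ccng2, and all 3 calls were lost with runs of library numbers as a random block. Against shControl, clone1 differed by -0.15 for Txnip and 0.16 for Ccng2, and neither passed. Foxo3 in clone1 did not pass without any 1 Scrambled library (edgeR adjusted p from 0.0834 to 0.138). Gadd45a, a growth arrest and DNA damage gene, fell from 63.8 ± 15.3 CPM to 22.4 ± 14.8 in clone1, by 1.66 ± 0.29 (edgeR adjusted p = 0.000409). Foxo1 fell in clone2 from 9.08 ± 1.88 to 4.45 ± 1.12 CPM, by 1.04 ± 0.28 (edgeR adjusted p = 0.00368). That fall did not pass with runs of library numbers as a random block (0.0702) or with the replicate block (0.0732). Ccng2, a cyclin that restrains the cell cycle, rose in clone2 by 0.66 ± 0.18 (edgeR adjusted p = 0.0039), but changes of 0.24 against shControl and 0.27 with clone replicates 7 to 9 alone did not pass. In the libraries labelled shYAP, 3 of 16 were lower and none higher, against 5.9% and 5.47% of all genes, where 1 was higher at an unadjusted p under 0.05 and 0 in DESeq2 and limma. The lower ones included Rictor, which is also on the PI3-kinase list, and Foxo3. Foxo3 fell by 0.745 (edgeR adjusted p = 0.0445), but did not pass without any 1 shYAP library (adjusted p from 0.0999 to 0.231). Cdkn1b, the cell cycle inhibitor p27, held 3.50 ± 1.12 CPM in the libraries labelled shYAP (n = 3) against 12.6 ± 6.59 in shControl (n = 10), a fall of 1.80 ± 0.41 (edgeR adjusted p = 0.00776). Without shYAP replicate 2 or 3 its adjusted p was 0.0639 and 0.0561, and against shControl replicates 8 to 10 alone it was 0.0546.

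Of the genes for glucose uptake and metabolism that insulin induces, 8 of 12 were tested. In clone1, 0 were higher and 1 lower, against 5.96% and 6.71% of all genes. In clone2, 1 was higher and 1 lower, against 16.5% and 16.6%, and the median change was 0.12 beside -0.03. Between the clones 3 were higher and 1 lower in clone2, against 23.6% and 25.5%. Hk2, a hexokinase, fell in clone2 from 161 ± 10.6 to 96.5 ± 26.4 CPM, by 0.76 ± 0.16 (edgeR adjusted p = 0.000372). The higher gene there was Gys1, at 0.58 ± 0.18 (edgeR adjusted p = 0.0109), which did not pass without Scrambled replicate 1 or 2. In the libraries labelled shYAP, 2 of 8 were lower and 0 higher, against 5.9% and 5.47%, with a median of -0.51 beside -0.05. The counts of 0 higher in clone1 and shYAP were also 0 at an unadjusted p under 0.05 and in DESeq2 and limma.

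Of 25 genes of PTB-domain adaptors and the receptors they bind, the class to which Pid1 belongs, 17 were tested in the CRISPR experiment. In clone1, 2 were higher and 0 lower, against 5.96% and 6.71% of all genes, and the median change was 0.25 beside 0.03. At an unadjusted p under 0.05 edgeR counted 1 lower, while DESeq2 and limma called 0. In clone2, 2 were higher and 2 lower, against 16.5% and 16.6%, and the median change was 0.03 beside -0.03. Between the clones 1 was higher and 6 were lower in clone2, against 23.6% and 25.5%. App, the amyloid precursor that PTB adaptors bind, stood at 78.6 ± 2.62 CPM in Scrambled, 131 ± 22.7 in clone1 and 56.7 ± 7.35 in clone2. It rose in clone1 by 0.73 ± 0.14 (edgeR adjusted p = 0.000396) and fell in clone2 by 0.49 ± 0.14 (0.00432). Lrp1, the receptor that Pid1 binds, rose in clone1 from 1.20 ± 0.423 to 3.77 ± 1.69 CPM, by 1.68 ± 0.52 (edgeR adjusted p = 0.026). That call was lost without any 1 Scrambled library (adjusted p from 0.0558 to 0.170), and against shControl the difference was 0.22. Lrp1 passed the filter on low counts through the clones, where it was higher. In the libraries labelled shYAP, 6 of 16 were lower and 1 higher, against 5.9% and 5.47% of all genes, with a median of -0.35 beside -0.05. Of these, Apbb2 and Lrp8, both lower, and Ccm2, the higher 1, did not pass without shYAP replicate 1 or 2. All 3 were also lost with runs of library numbers as a random block. Vldlr, a lipoprotein receptor, fell from 26.3 ± 6.81 to 9.75 ± 3.71 CPM, by 1.44 ± 0.28 (edgeR adjusted p = 0.00188).

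Imprinted genes were followed because Igf2, Igf2r and Grb10 are imprinted. Of 28 genes, 11 were tested in the CRISPR experiment, and 2 were lower in clone1, against 6.71% of all genes. In clone2, 2 were higher and 1 lower, against 16.5% and 16.6%. Snrpn, a splicing protein gene of the paternally expressed cluster of Prader-Willi syndrome, held 18.6 ± 1.45 CPM in Scrambled, 9.19 ± 2.23 in clone1 and 23.4 ± 4.22 in clone2. It fell in clone1 by 1.01 ± 0.20 (edgeR adjusted p = 0.000468). Ascl2, an intestinal stem cell factor whose gene lies in the imprinted cluster of Igf2, fell in clone1 from 201 ± 81.8 to 55.7 ± 24.0 CPM, by 1.90 ± 0.40 (edgeR adjusted p = 0.00397). Against shControl, at 92.2 ± 45.1 CPM, that difference was -0.76 and did not pass (adjusted p = 0.107). Gnas, the stimulatory G protein subunit, rose in clone2 from 58.4 ± 5.70 to 163 ± 42.0 CPM, by 1.47 ± 0.25 (edgeR adjusted p = 7.67e-05).

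**Figure D4:**
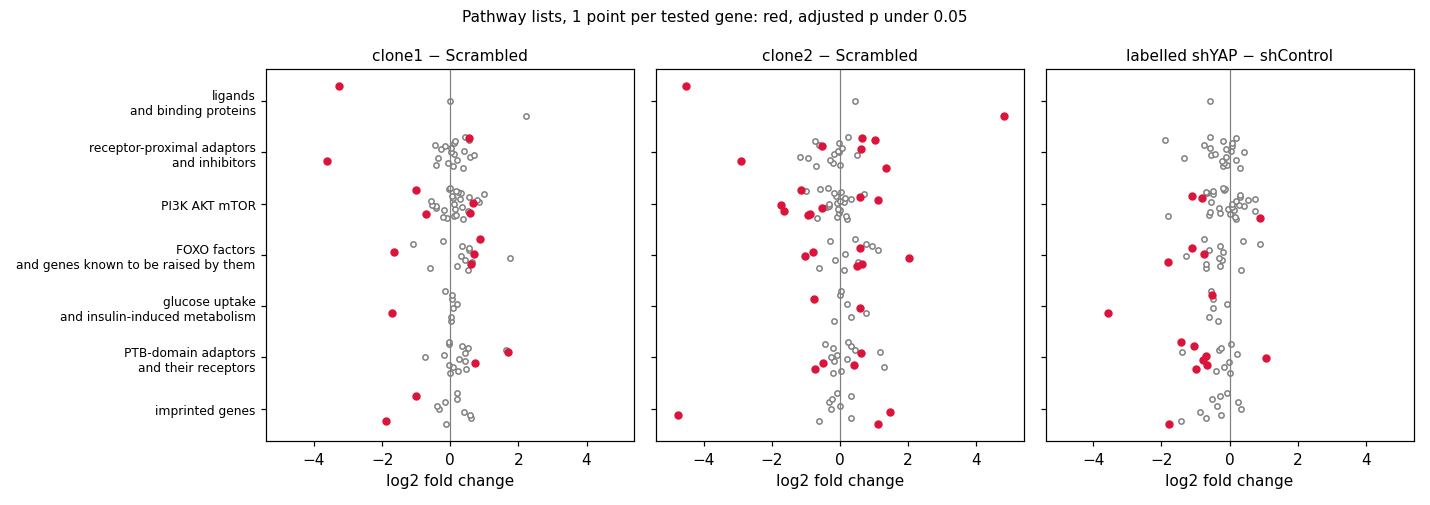
Log2 fold change of each tested gene of 7 lists in clone1 and clone2 against Scrambled and in the libraries labelled shYAP against shControl, red where the adjusted p was under 0.05. Enpp1 is the outlying point of the receptor-proximal list at -3.62 and -2.91 in the clones.

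Calls against Scrambled rested on its 3 libraries. Of 17 called genes named in clone1 from the lists or beside Pid1, 9, 10 and 9 kept their calls without Scrambled replicates 1, 2 and 3. Of 24 such genes in clone2, 16, 15 and 17 did. Dner and Enpp1 kept theirs in each of these fits in both clones, also when shControl took the place of Scrambled. Of 12 called genes of the lists in the libraries labelled shYAP that could be named, 3, 2 and 5 kept their calls without shYAP replicates 1, 2 and 3. With runs of library numbers as a random block 3 did.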

How the data were processed

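Poly(A)-selected RNA of 34 organoid libraries was sequenced from a directional kit, per the labels' protocols. The deposited table holds expected counts per gene, made by the authors with Salmon 1.3.0 on mm10, per the submitters' processing notes, and all values were whole numbers. Whether counting used strand is not given in the sources used here. Of 54354 genes, 29742 had 0 counts in every library. Unnamed entries, which took up to 0.0475% of the counts in a library, were kept under their IDs.

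Tests used edgeR 4.0.16 in R 4.3.3: filterByExpr (minimum count 10, minimum total 15), TMM, and a robust two-sided quasi-likelihood test, with Benjamini-Hochberg adjustment over all genes tested and a threshold of 0.05. The 21 CRISPR libraries, the 13 hairpin libraries and, for Scrambled against shControl, all 34 were each fitted together. The clones share their 3 Scrambled libraries. DESeq2 1.42.0, limma 3.58.1, other scalings, filters, thresholds, replicate subsets and blocks were alternatives. The fits were tested on simulated data with known changes. Library totals of 883253 to 6597099 counts limit the precision of low genes, and counting intervals are 95% and exact.

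The members and gene lists were chosen with earlier results of these data known. Of each list, up to 4 called genes per comparison could be named, largest change first, if their mean log2 CPM reached 1. The 5 genes most like Pid1 and the 3 most opposite were taken by Pearson's r among 9767 genes, predicted and unnamed genes left out. Same-numbered libraries did not deviate together (r from -0.069 to 0.076), so replicate numbers were not treated as pairs. Positions are from GENCODE M21, which held 51528 of the IDs, and promoters are from RefSeq GRCm38.p6, with Insr not matched. Some genes of these lists are not reported here.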

Additional observations from a re-analysis of the deposited data

Results flagged for a closer look

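Among 24 sets of member values within a group, 3 had a library far from the others. The rule marks about 1 in 20 sets of normally distributed values. Sets of low counts are not distributed so, and the 3 cannot be read against that rate. Insr was at 14.9 CPM in shControl replicate 5, the highest of that group. Pik3r1 was at 13.4 CPM in shControl replicate 3, the shallowest library of its group. Grb10 was at 0.441 CPM in clone2 replicate 7, from 2 counts, in a group with 6 of 9 libraries at 0. The 2 knockout clones, compared with each other by edgeR, differed for 4 members, with log2 differences of clone2 from clone1 of -1.17 for Irs2, -0.38 for Igf2r, -0.85 for Pik3r1 and -0.55 for Insr.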

How the results depend on the processing

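Of the alternative values computed for members, 405 stayed the same, 62 lost a call, 9 gained one, 26 changed sign and 2 moved, and the causes were not tested. Values that stayed the same kept direction and side of the threshold. For Pid1 without a test, they instead kept direction and shifted by less than the SD of log2 CPM within groups. The 2 that moved were Pid1 in clone1 and in clone2. The 1459 genes called in clone1 became 756 at a threshold of 0.01, 456 with runs of library numbers as a random block, 2503 against shControl and 779 to 1596 with 1 library left out. The 3810 of clone2 became 2271 with runs as a block. The 1261 of shYAP became 453 at 0.01, 298 with runs as a block, 2065 in 1 fit of all 34 libraries, 2229 against shControl replicates 8 to 10 alone and 412 to 1398 with 1 library left out. The 353 of Scrambled against shControl became 145 at 0.01, 64 with runs as a block, 191 with only the 2 groups compared and 102 to 195 without 1 Scrambled library.

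With the replicate block, calls numbered 1350 in clone1, 2957 in clone2, 5555 between clones, 1730 in shYAP and 453 between controls. The numbers do not pair the libraries. With the replicate block, log2 changes of changed sign were -0.49 for Pik3r1 in clone1, 0.32 for Irs1 in clone2, and -0.095 for Irs1 and 0.060 for Pik3r1 between controls.

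Pik3r1 in clone1, close to 0, was -0.0044 with DESeq2's size factors, -0.0051 without a filter, -0.0087 in DESeq2, -0.26 in limma, -0.21 with runs as a block, -0.00077 in 1 fit of all libraries, -0.13 with clone replicates 1 to 6, and -0.089 to 0.10 with 1 library left out. Against shControl, sign changed in clone1 for Insr (-0.026), Igf1r (-0.11), Igf2r (-0.0064), Pik3r1 (-0.25), Eif4ebp1 (0.077) and Txnip (-0.15), and in clone2 for Insr (-0.55), Irs1 (0.040), Irs2 (0.013) and Igf2r (-0.36). With clone replicates 1 to 6 alone Irs1 in clone2 was 0.0063 and Igf1r between clones -0.023, and with 7 to 9 alone Socs2 between clones was 0.19. In shYAP, Irs2 was 0.0083 in limma and 0.15 against shControl replicates 8 to 10, and Pid1 ran from -0.055 to 0.18 with 1 library left out. Igf2 and Grb10 were too low at this depth for the filtered test.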
